A study of Mus musculus with 2 samples.

Results

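The 10 genes described here are immediate early genes of the mouse, namely Egr1, Egr2, Egr3, Klf6, Nr4a1, Ier2, Ier3, Ier5, Dusp1 and Zfp36. They were read from 2-colour microarrays by taking every probe that was no control and carried 1 of these names, which gave 10 of the 34820 names and 11 of the 55676 probes tested (2 probes for Ier5 and 1 for each other gene). Each array compared dorsal epidermis of an induced pup, with both the K14-rtTA and the TRE-Sox11-FLAG transgenes, with that of a littermate. The littermate had K14-rtTA alone. There were 2 such littermate pairs, matched by sex per the methods. All pups were of strain FVB/N, aged postnatal day 4.5, and had received doxycycline (Dox) for 12 h. K14-rtTA makes a Dox-dependent activator under the keratin 14 promoter, so the activator is present in keratin 14 positive cells of all pups, and TRE-Sox11-FLAG is the transgene it switches on, which gives FLAG-tagged SOX11 in the induced pups. In all pups the epidermis was lifted off the dermis after warm incubation with dispase, a protease, and RNA was taken from the sheets, per the methods.

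Immediate early genes are transcribed within minutes of a stimulus such as a growth factor, stress or injury, from factors that are already present in the cell, and their RNA is usually short-lived. The ERK and p38 kinase pathways act on many of them through serum response factor (SRF) with its partners of the Elk family and through CREB. Some are also reached by signals that act through NF-kB. The products include transcription factors that start a later wave of genes and inhibitors that end the signal. In skin they are known to respond to wounding.

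The dyes ran the same way on both arrays, with Cy3 (green) for controls and Cy5 (red) for SOX11-induced epidermis, so a log2 ratio above 0 means brighter in SOX11-induced epidermis. The dye and the transgene therefore cannot be told apart within a probe. Between 37.5% and 42.6% of spots were well above background in a channel. Neither of the 2 Sox11 probes was well above background in any channel, so they could not check the labels. Per the methods the transgene carries the reading frame of Sox11, and whether these probes lie within it was not tested. The paper shows FLAG-tagged SOX11 protein by immunofluorescence in such pups after Dox. Keratinocyte markers matched the labelled tissue, as Krt5, Krt14, Trp63, Itga6, Itgb4, Krt1, Krt10, Lor, Ivl and Dsg1a were above background in every channel. Within the pairs, 4 of the 5 suprabasal markers were higher in both (median of the means 0.50, with 0.62 for Krt1, 0.58 for Krt10 and 0.50 for Lor). The other, Dsg1a, was lower in both (-0.56 and -0.15). Of the 5 basal markers 4 were lower in both (median -0.31, with -0.44 for Krt5), and Itga6 had -0.08 and 0.06. These differences were of the size of many early gene values, although none of these 10 markers passed (adjusted p from 0.0784 to 0.981). The part of these differences in the values of the early genes was not tested. RNA of a whole tissue cannot tell a change in the share of cells of a type from a change in RNA per cell.

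The control regions of these genes are shown because sites for CREB, SRF and NF-kB are the textbook entry points of early signals. RefSeq sequences of the build GRCm38.p6 were matched by symbol for 7 of the 10 genes, and the 250 bases before the transcription start were searched on both strands. Egr1, Egr3 and Ier2 had no matched sequence and were not searched. Capitals mark the CREB-type sequence TGACG (read as CGTCA on the other strand, and contained in the palindrome TGACGTCA), the CArG box that SRF binds, and the NF-kB site. For Dusp1 (chr17:26508473-26508722, minus strand), Nr4a1 (chr15:101266596-101266845, plus strand) and Ier3 (chr17:35821463-35821712, plus strand) the whole window is given, and for Egr2 (chr10:67537789-67537818, plus strand) and Zfp36 (chr7:28379265-28379294, minus strand) 30 bases that hold the CArG box.
Dusp1: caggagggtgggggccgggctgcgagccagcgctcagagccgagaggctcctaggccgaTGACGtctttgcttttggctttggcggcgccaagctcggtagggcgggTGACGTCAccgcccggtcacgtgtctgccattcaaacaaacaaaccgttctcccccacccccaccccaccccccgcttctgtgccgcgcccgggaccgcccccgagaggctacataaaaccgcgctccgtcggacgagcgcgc
Nr4a1: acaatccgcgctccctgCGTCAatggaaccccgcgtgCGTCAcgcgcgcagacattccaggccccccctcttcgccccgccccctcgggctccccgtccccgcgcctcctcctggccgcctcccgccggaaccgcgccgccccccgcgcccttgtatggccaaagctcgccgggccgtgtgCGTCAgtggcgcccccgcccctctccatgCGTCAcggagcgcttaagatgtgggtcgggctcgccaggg
Ier3: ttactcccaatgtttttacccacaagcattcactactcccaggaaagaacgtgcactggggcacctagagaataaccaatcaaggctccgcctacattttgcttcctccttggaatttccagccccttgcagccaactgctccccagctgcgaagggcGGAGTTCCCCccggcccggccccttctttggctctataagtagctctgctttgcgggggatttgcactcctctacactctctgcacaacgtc
Egr2: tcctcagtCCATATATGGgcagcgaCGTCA
Zfp36: aggccgccCCATAAAAGGagaaagctcctg

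TGACG stood in 3 of the 7 windows, at 4 places in Nr4a1, at 2 in Egr2 and at 3 in Dusp1, where 2 of the 3 are the strands of 1 palindrome. Among all 32841 such windows, 17.8% held it. The CArG box stood in 2 of 7, against 1.47% of all windows, and the NF-kB site in Ier3 alone of the 7, against 3.90%. The sequence ACAANG, a core of SOX sites, was found in Ier3, Ier5 and Nr4a1 and in 36.3% of all windows. TGANTCA, the AP-1 site, and TATAAA were in none of the 7 windows (6.75% and 12.4% of all), and GCGNGGGCG, the site of Egr proteins, was in Nr4a1 and Zfp36 (4.70% of all). A match is a description of letters and not of binding.

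Of the 9 genes whose probe was well above background, Egr1 and Ier3 rose in SOX11-induced epidermis, by 2.00-fold and 1.78-fold. The other 7 did not pass an adjusted p of 0.05, with mean log2 ratios from -0.18 for Egr3 to 0.64 for Dusp1, and no gene fell. Zfp36 was not well above background in any channel and is treated apart. Over 14612 names above background, 6.21% passed as higher and 3.56% as lower, against 2 of 9 and 0 of 9 here. Over all probes, dim ones included, 2.99% were higher and 1.41% lower, against 3 and 0 of the 10 genes with Zfp36 counted. No member was past a log2 ratio of 1.5, the threshold worded in the methods, which 0.453% of all probes passed with an adjusted p under 0.05; under median centring in place of loess, Egr1 alone reached 1.68. Log2 ratios were positive in both pairs for 6 of the 9, against 38.6% of names above background. The 9 had a median of 0.39 in the first pair and 0.53 in the other, against 0.02 and 0.01 over all 19095 probes above background.

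**Figure D1:**
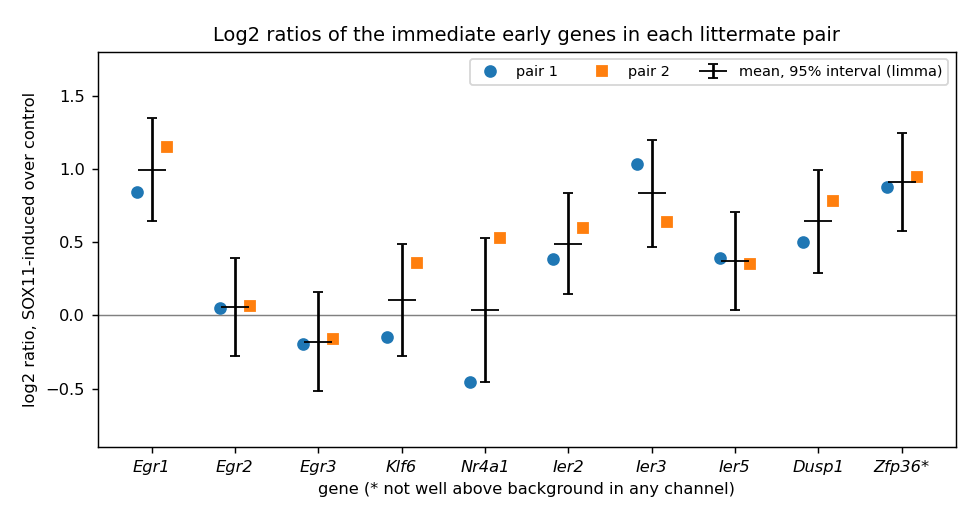
Log2 ratio of SOX11-induced over control epidermis (y axis) for the brightest probe of each gene (x axis), with pair 1 as circles, pair 2 as squares, and the mean with its 95% interval from the limma fit as bars. Egr1 (0.84 and 1.15) and Ier3 (1.03 and 0.64) have both pairs well above 0, Egr2 and Egr3 lie near 0, and Nr4a1 and Klf6 have opposite signs in the pairs.

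Among the transcription factors Egr1 alone passed. EGR1 is a zinc finger protein that binds GC-rich sites and is among the fastest genes to answer growth factors and wounding. Its probe on chromosome 18 had a normalised log2 brightness of 11.55 and 11.92 in the controls of pairs 1 and 2, and of 12.39 and 13.07 in the SOX11-induced littermates. Both induced pups were above both controls, so the groups did not overlap. The log2 ratios were 0.84 and 1.15, a mean of 1.00 ± 0.221 (SD, n = 2 pairs, adjusted p = 0.00879, limma), with a 95% interval from 0.64 to 1.35. Of the probes above background, 2.89% had a higher mean. The call was lost when the 4 channels were fitted as unpaired samples (adjusted p = 0.155) and with the processed signals of the scanner software (adjusted p = 0.301), where the mean was 1.02.

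Egr2 and Egr3, relatives of Egr1 with nearly the same zinc fingers, did not move with it. Egr2, known for its part in myelination and hair follicles, had a brightness of 11.04 and 11.11 in the controls and of 11.09 and 11.17 in the induced pups at its probe (chr10:67004798-67004857, mm9). These 4 values overlapped, and the log2 ratios were 0.05 and 0.06 (mean 0.06 ± 0.0093, adjusted p = 0.865), with an interval from -0.28 to 0.39 that leaves out the mean of Egr1. Egr3, studied mostly in muscle spindles and lymphocytes, had 6.15 and 6.05 in the controls and 5.95 and 5.89 in the induced pups (chr14:70479222-70479281). Both induced pups were lower, but the log2 ratios of -0.20 and -0.16 (mean -0.18 ± 0.024) did not pass (adjusted p = 0.536). The interval for Egr3 ran from -0.51 to 0.16. The difference between Egr1 and its relatives was not tested.

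Klf6 and Nr4a1 were the 2 of the 9 genes with opposite signs in the pairs, beside 4844 of the 19095 probes above background. Nr4a1 is an orphan nuclear receptor, active without a known hormone, that responds to calcium, cAMP and stress. At its probe (chr15:101105071-101105130) the controls had 11.95 and 11.91, nearly alike, while the induced pups had 11.50 in pair 1 and 12.44 in pair 2, below and above both controls. The log2 ratios of -0.45 and 0.53 gave a mean of 0.04 ± 0.695, smaller than its SD (adjusted p = 0.941). Klf6, a zinc finger protein known to be induced in injured liver, had 12.38 and 12.21 in the controls and 12.23 and 12.57 in the induced pups (chr13:5869371-5869430). Its log2 ratios were -0.15 and 0.36 (mean 0.11 ± 0.361, adjusted p = 0.771). For comparison, the median SD over pairs was 0.126 over probes above background and 0.195 over the 9 members.

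**Figure D2:**
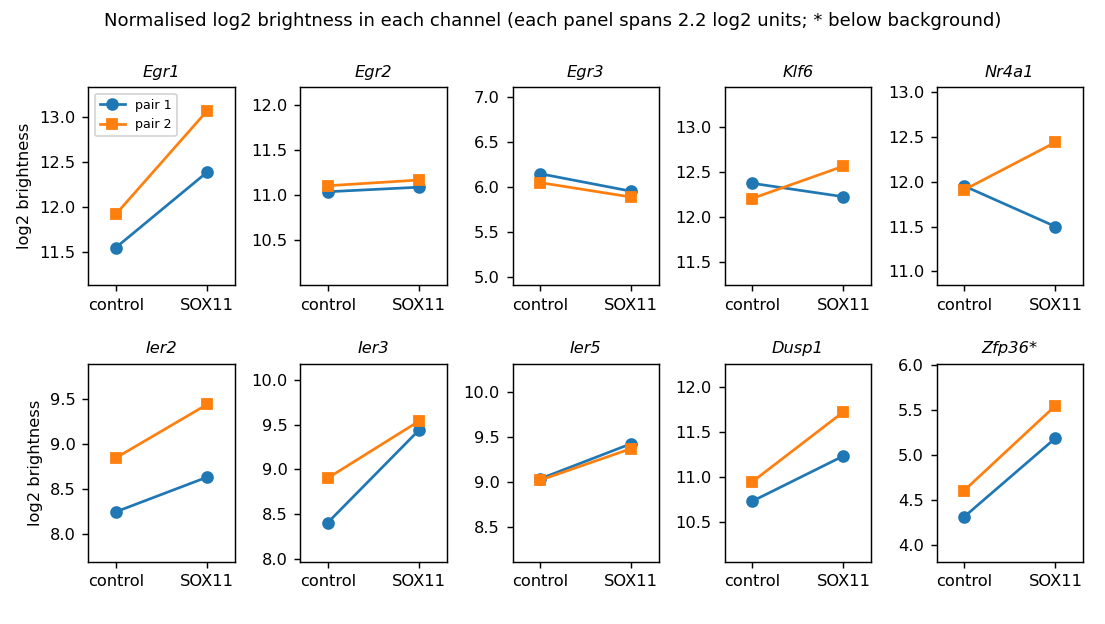
Normalised log2 brightness (y axis) of each gene in the control and SOX11-induced channel (x axis), with a line for each littermate pair; every panel spans the same range, and levels are not comparable between panels. Both lines climb for Egr1, Ier2, Ier3, Ier5 and Dusp1, and the lines of Nr4a1 and Klf6 cross.

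Among the Ier genes, whose names stand for immediate early response, Ier3 was the one that passed. IER3 is a small stress protein that prolongs ERK signalling and affects cell survival, and its gene is a target of NF-kB and p53. Its probe (chr17:35959528-35959587) had 8.41 and 8.90 in the controls and 9.44 and 9.54 in the induced pups, without overlap. The induced pups were nearly alike, and the controls differed by 0.50. The log2 ratios were thus 1.03 and 0.64, a mean of 0.83 ± 0.281 (adjusted p = 0.0229, limma), with an interval from 0.47 to 1.20. As for Egr1, the call was lost without pairing (adjusted p = 0.137) and with processed signals (adjusted p = 0.313).

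Ier2 and Ier5 are short relatives of each other that bind the phosphatase PP2A. Ier2 (chr8:87186214-87186273) had 8.24 and 8.84 in the controls and 8.63 and 9.44 in the induced pups. The control of pair 2 was brighter than the induced pup of pair 1, so that the groups overlapped although each induced pup exceeded its own littermate. The log2 ratios of 0.39 and 0.60 (mean 0.49 ± 0.148) did not pass (adjusted p = 0.108). The probes of Ier5 lie at chr1:156945765-156945824 and chr1:156943530-156943589 and gave nearly equal results. At the brighter probe the controls had 9.04 and 9.02 and the induced pups 9.43 and 9.37, a log2 ratio of 0.39 and 0.35 (mean 0.37 ± 0.028, adjusted p = 0.194). At the other probe the log2 ratios were 0.39 and 0.36 (mean 0.37 ± 0.026, adjusted p = 0.193). The groups did not overlap at either Ier5 probe, and the probes, being of 1 RNA, are not independent.

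Of the inhibitors of the signal, Dusp1 missed the threshold narrowly and Zfp36 was too dim to measure. Dusp1, a phosphatase of the cell nucleus that inactivates the p38, JNK and ERK kinases, had 10.73 and 10.95 in the controls and 11.24 and 11.73 in the induced pups. Both induced pups were above both controls. The probe is listed at chr17:26642526-26642536 on mm9, a stretch shorter than the probe. The log2 ratios of 0.51 and 0.78 (mean 0.64 ± 0.195, interval from 0.29 to 0.99) fell just short of the threshold (adjusted p = 0.0524). Over the alternatives of the processing its adjusted p ranged from 0.000426 to 0.312, and 3 of 8 passed.

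Zfp36 encodes tristetraprolin, which binds AU-rich elements and speeds the decay of short-lived RNAs, those of many early genes and cytokines included. Its probe (chr7:29161940-29161999) was not well above background in any of the 4 channels. The mean spot brightness before normalization was 25.4 and 28.5 in the Cy3 channel and 68.2 and 79.4 in the Cy5 channel, in scanner units. The log2 ratios were 0.88 and 0.95 and passed the fit (adjusted p = 0.0105), but no fold change is given, since both channels were at background. The mean of 0.91 became 0.42 with an offset of 50.

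Groups of channels were also compared by overlap alone. In 4 of the 9 genes above background (Egr1, Ier3, Ier5 and Dusp1) both induced pups were brighter than both controls, against 28.5% of names above background. In Egr3 both were dimmer, a direction whose share over all names was not counted, and in the other 4 the groups overlapped. Control 2 was brighter than control 1 by 0.60 for Ier2, by 0.50 for Ier3, by 0.37 for Egr1 and by 0.22 for Dusp1, while Ier5, Nr4a1, Egr2, Egr3 and Klf6 differed by 0.17 at most between controls. The controls of Ier2 thus differed by more than its mean log2 ratio of 0.49, and those of Ier5 by less than its mean of 0.37.

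A list of 64 further early genes and regulators was read from the same fit, of which 58 were above background in all channels. Of these 58, 7 rose, 3 fell and 48 did not pass, against 6.21% of names above background that were higher and 3.56% that were lower, and the median of the list was 0.13. None of the 6 dimmer genes passed. Elk3, a partner of SRF of the Elk family, rose by 1.19 ± 0.023 at its brightest probe (adjusted p = 0.00261). Its other, dimmer probes had means of 0.59 and 0.41 and did not pass (adjusted p = 0.0608 and 0.239, limma). The probe with 0.41 was below background in every channel. Plk2, a kinase of the polo family, rose by 0.95 ± 0.016 (adjusted p = 0.00843), and Dusp6, a phosphatase specific for ERK, by 0.87 ± 0.352 (adjusted p = 0.0230). Gadd45a (0.86), which answers DNA damage, Rhob (0.72), a small GTPase, Klf7 (0.66) and Arc (0.64) also rose, with adjusted p-values of 0.0170, 0.0314, 0.0416 and 0.0462. Another Rhob probe above background had a mean of 1.11 (adjusted p = 0.00448, limma). Arc differed by over 1 on the log2 scale between the controls (10.16 and 11.64), while its ratios were 0.67 and 0.61.

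The falls were all among relatives of the members. Klf9, which responds to glucocorticoids, had a mean of -1.06 ± 0.076 (adjusted p = 0.00499), Zfp36l2, an RNA decay factor like tristetraprolin, of -1.03 ± 0.343 (adjusted p = 0.0103), and Klf2 of -0.98 ± 0.407 (adjusted p = 0.0160). Klf4, a factor of epidermal differentiation, had 0.14 and Klf3 0.00, and Klf5 had -0.68 (adjusted p = 0.0564). Of the 15 relatives above background 2 rose and 3 fell, and 10 did not pass, beside the same 6.21% and 3.56% over all names. Groups this small are described by their counts alone. The Egr co-repressors Nab1 and Nab2 had means of -0.54 and -0.23, with adjusted p-values of 0.0895 and 0.454. Srf itself had 0.61 and 0.51 at its brightest probe (mean 0.56 ± 0.077, adjusted p = 0.0718). Another Srf probe above background had 0.14 and 0.57 (mean 0.35 ± 0.305, adjusted p = 0.257, limma). Of the 6 serum response factors 1, Elk3, passed at its brightest probe, against 6.21% of names that were higher.

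The Fos and Jun genes, which make the AP-1 factor, are the best known early genes, and all 8 were above background. None of the 8 passed in limma, with means from -0.62 for Fosl2 to 0.36 for Atf3 and adjusted p-values from 0.0650 to 0.918. At an unadjusted p under 0.05, 1 of the 8, Fosl2, would have passed, and the share over all names at that threshold was not counted. Another Fosl2 probe above background had a mean of -0.43 (adjusted p = 0.151, limma). The median of the 8 was -0.04 for pair 1 and 0.26 for pair 2. Opposite signs in the pairs were found in 5 of the 8, beside 4844 of the 19095 probes above background. Fos was printed at 10 spots per array, with log2 ratios of -0.03 ± 0.082 (SD, n = 10 spots) in pair 1 and 0.61 ± 0.060 in pair 2.

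**Figure D3:**
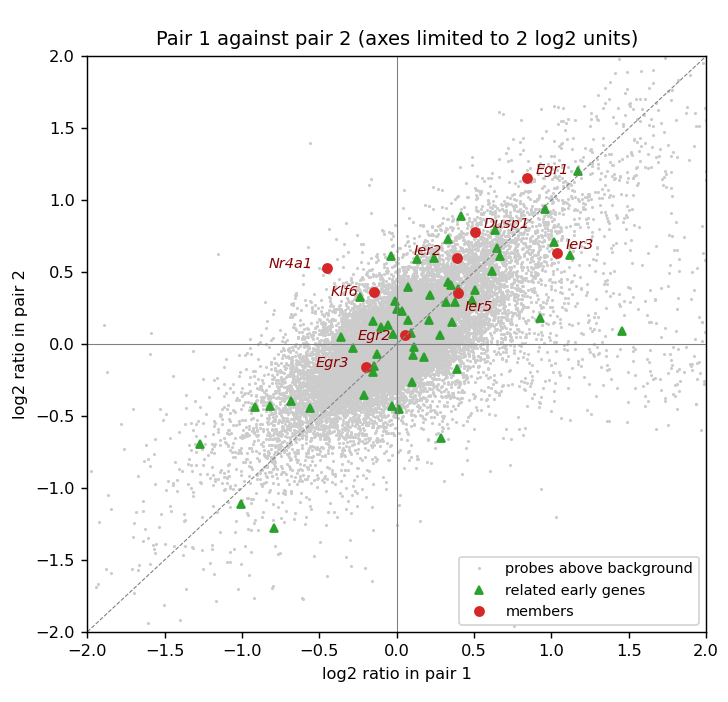
Log2 ratio in pair 1 (x axis) against pair 2 (y axis) for probes above background (grey), related early genes above background (triangles) and the 9 members above background (circles); the dashed line marks equal ratios. Egr1, Ier3 and Dusp1 lie to the upper right, and Nr4a1 and Klf6 lie to the upper left.

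The member with the largest mean among those above background was Egr1. Related genes were ranked by the distance between the 2 log2 ratios at the brightest probe of each gene. Nearest to Egr1 were Plk2 (0.96 and 0.94, a distance of 0.25), Elk3 (1.17 and 1.21, a distance of 0.34) and Rhob (0.64 and 0.79, a distance of 0.41). The other Rhob probe had 0.99 and 1.23 and was not ranked, so the order holds for the brightest probes alone. With only 2 pairs the likeness to Egr1 is a description.

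Markers of other cells moved between channels as well. The 5 hair shaft keratins, all above background, had medians of 2.28 and -0.38 for the log2 ratios of pairs 1 and 2, and their summed normalised brightness was 25924.5 and 234964 in the controls and 127299 and 193521 in the induced pups. The 6 fibroblast markers had medians of -0.10 and 0.50, with sums of 1099 and 1182 in the controls and 834 and 1535 in the induced pups, and Lum and Pdgfra were not above background. The list was split, as Dcn, a proteoglycan gene, fell in both pairs (-0.97 and -0.62, adjusted p = 0.0260, limma), the only marker of any list to pass, while Col1a1, Col1a2 and Col3a1, collagen genes, had -0.03, -0.17 and -0.17 in pair 1 and 0.77, 1.14 and 0.91 in pair 2. The 5 leukocyte markers had medians of -0.33 and -0.01, with sums of 13781 and 4657 in the controls and 10468 and 3328 in the induced pups, and Lyz2 was not above background. The 4 endothelial markers had medians of 0.10 and -0.06, with sums of 779 and 763 in the controls and 722 and 707 in the induced pups, and 1 of the 4 was above background in every channel, Cdh5 and Tek in none. The 4 melanocyte markers had medians of 0.56 and -0.06, with sums of 9246 and 7150 in the controls and 11925 and 6826 in the induced pups, and all 4 were above background. Of the 9 early genes above background, 7 had their higher log2 ratio in pair 2, and Ier3 and Ier5 in pair 1. The ratio of pair 2 minus that of pair 1 was only 0.01 for Egr2, 0.03 for Egr3 and -0.04 for Ier5, and the share over all names was not counted. The part of these other cells in the values of the early genes was not tested.

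**Figure D4:**
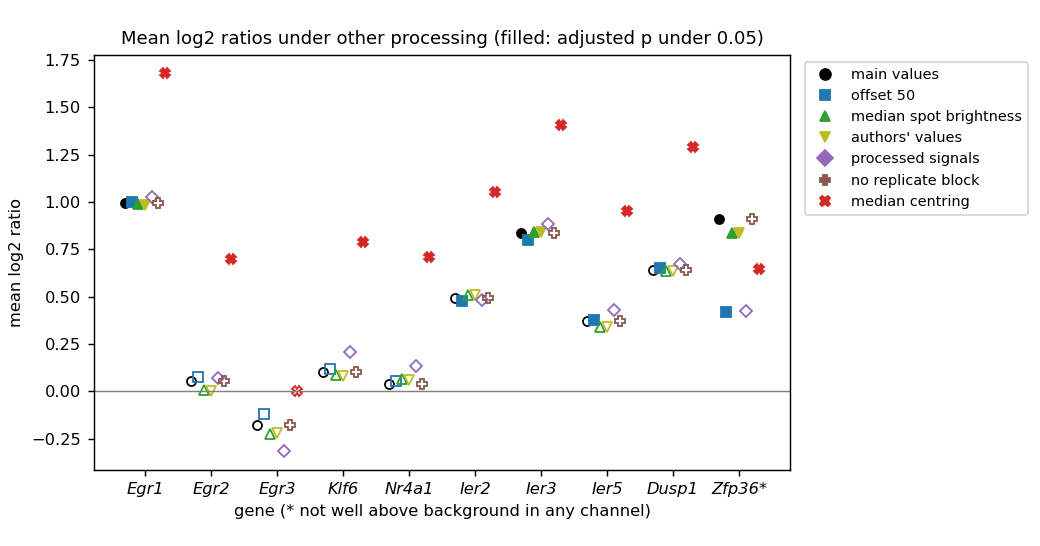
Mean log2 ratio (y axis) of each gene (x axis) under the main values and 6 other ways of processing, with filled symbols where the adjusted p was under 0.05. Median centring lifts the genes above background, Egr1 and Ier3 stay near 1.00 and 0.83 under the others, and no symbol is filled for processed signals or for the fit with no replicate block.

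All values above are relative to the loess curve of each array. Under median centring in place of loess, the median of the probes above background was 0.53, against 0.02, and that of the 9 members was 0.95, against 0.37. Relative to the probes above background, the members thus stood 0.42 higher under median centring and 0.35 higher with loess, and under either 8 of the 9 lay above that median. With the authors' values 7 of 9 did.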

How the data were processed

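Total RNA of 2 littermate pairs was hybridised to 2-colour Agilent arrays that lay on 1 slide. Per the file headers, the deposited intensity values are the brightness of spots and local background from Agilent Feature Extraction 10.7.3.1, without normalization, with probe positions on mm9. Processed signals are intensity values that this software corrected. The authors' series table holds log2 ratios of Cy5 over Cy3, which were matched with median spot brightness, normexp and loess (correlation 1.00 on both arrays) and used as an alternative. The methods describe a colour swap, which the labels do not show.

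Mean spot and median background brightness were corrected by normexp with an offset of 16 and normalised by loess (control spots weighted 0) in R 4.3.3 with limma 3.58.1. Spots with outlier flags (194 and 186) were left out, and spots of a probe were averaged. A model with an intercept was fitted to the 2 ratios of 55676 probes (lmFit, eBayes, Benjamini-Hochberg over all probes). It was also run on simulated ratios drawn from the variance prior of the same fit. These held no dye effect, so that run cannot check the calls against the dye. A gene passed at an adjusted p under 0.05 at its brightest probe. With 2 arrays the calls rest on the moderated variances (prior SD 0.223), since an exact sign-flip test cannot go below 0.5. Where RefSeq gave several promoter windows for a gene, the most downstream was used. Channel brightness was taken after loess and Aquantile scaling. A probe was above background where at least 0.5 of its spots were marked so by the scanner software. The p-values set the mean of these 2 littermate pairs against a variance drawn largely from all probes (prior degrees of freedom 8.34). They therefore do not measure the spread between the pairs alone, and the number of pairs limits the precision. Alternatives are given in the closing section.

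Every member was named with all probes, and of the related list the genes that passed, the Fos and Jun range, the 3 genes nearest to the leading member, and, after their values were seen, Klf3, Klf4, Klf5, Nab1, Nab2 and Srf. The members and lists were chosen with earlier results of these data known.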

Additional observations from a re-analysis of the deposited data

How the results depend on the processing

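With an offset of 50 for normexp, 6 members and 20 related genes passed, against 3 (Zfp36 included) and 10. The added members were Dusp1, Ier2 and Ier5. In this section members and related genes are counted by p alone, while most probe counts also need a log2 ratio past 1.5. The share of all probes past p alone, adjusted or not, was not counted under the alternatives, so these counts have no background beside them. Median centring gave 9 members, 44 related genes and 756 probes past log2 1.5, against 252, and moved the share of higher probes among these from 81.0% to 98.7%. Egr3 then turned from -0.18 to 0.0045, and the median of all probes above background was itself 0.53. Processed signals gave 0 probes, 0 members and 0 related genes in limma, where 892 probes, 4 members and 21 related genes had an unadjusted p under 0.05 (the probes also past log2 1.5). Each array holds a littermate pair, so the ratios are paired. The fit with no replicate block gave 0 members and 3 related genes, with 5 and 19 at an unadjusted p under 0.05, and 236 probes. A linear fold of 1.5 as threshold gave 2446 probes, 1662 higher and 784 lower, and a log2 ratio past 1.5 gave 0 members by either p. Median spot brightness, outlier spots kept, the filter on dim probes and the authors' values kept all counts within 1.5 times. Of 79 values of members over the alternatives, 62 kept direction and side of the threshold, 6 lost and 10 gained the call, and 1 turned. The causes were not tested. Leaving out an array leaves 1 ratio and no test. Egr1 then had 0.84 to 1.15 and Ier3 0.64 to 1.03. Centring on spike-in RNAs was not run, since their known ratios are not given per probe in the sources used here. The signal over background limited Zfp36.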
